A study of Mus musculus with 12 samples.

Results

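The MHC class I antigen presentation genes described here are 10 genes, chosen by symbol and followed in RNA-seq of mouse hair follicle stem cells (HFSCs), the CD34+ cells of the follicle bulge. They were found as 10 of the 17885 genes of the table that compares Eed iKO with control HFSCs and as 10 of the 21915 genes of the table that compares the phases of the hair cycle. All 10 passed the filter on low values in both tables, which left 15008 and 13457 genes to test. The 12 libraries, 3 per group, came from back skin of C57BL/6J mice and from cells gated on EpCAM and CD34, on high α6-integrin and on the absence of Sca1. The Eed iKO mice carry K15-CrePGR, a Cre recombinase that the Krt15 promoter drives in the bulge and that RU-486 activates, and floxed Eed, which encodes a core subunit of the Polycomb complex PRC2, and their cells are labelled Eed -/-. RU-486 at 10 mg/ml was applied to the skin once a day for 7 days from day 50 after birth, and the HFSCs of these mice and of the controls, labelled wildtype and given ethanol alone, were taken at day 70. The Eed genotype and the RU-486 therefore cannot be told apart. The anagen (growth phase) and telogen (resting phase) HFSCs came from wildtype mice of 28 to 30 days and of 50 to 52 days, so that the phase and the age cannot be told apart. The study states 3 biological replicates per group for the Eed iKO comparison, from at least 2 litters, and the labels tie no library to a litter.

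MHC class I molecules show peptides from inside the cell to CD8+ T cells and NK cells. Peptides are cut by the proteasome, whose subunit Psmb8 replaces a constitutive subunit in the immunoproteasome. They are pumped into the endoplasmic reticulum by the transporter of Tap1 and Tap2 and loaded, with the help of tapasin (Tapbp), onto a heavy chain paired with the light chain B2m. H2-K1 and H2-D1 are the classical heavy chains of this strain, and H2-Q4 and H2-T23 are non-classical ones, of which H2-T23 encodes Qa-1, a ligand of inhibitory and activating NK cell receptors. Nlrc5 is the class I transactivator, which acts at the promoters of these genes together with factors bound to their conserved boxes. The lower hair follicle is known as a site of low class I expression, and PRC2 is known to repress class I genes in some tumours. Of the 10 genes, 8 lie on chromosome 17 (GRCm38, mm10 in the submitters' processing notes), between the start of Tapbp at 33915899 and the end of H2-T23 at 36032855. Tap1 (34187553 to 34197225), Psmb8 (34197721 to 34201454) and Tap2 (34203527 to 34216321) lie there in a row on the plus strand. B2m lies on chromosome 2 (122147686 to 122153083) and Nlrc5 on chromosome 8 (94434356 to 94527272).

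Class I promoters are usually grouped by short sequence elements that only part of the 10 genes hold in the bases read here, and the promoters of H2-K1 and B2m are shown as examples of a heavy chain and of the light chain that hold them. Each is the stretch of 250 bases before the RefSeq start (GRCm38.p6), 5′ to 3′ along the gene: chr17:34000348-34000597 on the minus strand for H2-K1 and chr2:122147437-122147686 on the plus strand for B2m, whose last base is the first base of its first exon in GENCODE. Capitals mark 4 motifs searched on both strands, namely CCAAT (the Y box, here on the opposite strand), TGACG (the core of the X2 box), AANNGAAA (a core of the interferon-stimulated element) and the NF-kB consensus.
H2-K1: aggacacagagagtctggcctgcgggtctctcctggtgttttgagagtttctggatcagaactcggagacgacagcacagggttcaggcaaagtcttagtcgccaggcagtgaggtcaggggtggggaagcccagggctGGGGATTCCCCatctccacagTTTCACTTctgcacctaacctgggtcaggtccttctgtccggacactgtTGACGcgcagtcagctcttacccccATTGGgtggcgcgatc
B2m: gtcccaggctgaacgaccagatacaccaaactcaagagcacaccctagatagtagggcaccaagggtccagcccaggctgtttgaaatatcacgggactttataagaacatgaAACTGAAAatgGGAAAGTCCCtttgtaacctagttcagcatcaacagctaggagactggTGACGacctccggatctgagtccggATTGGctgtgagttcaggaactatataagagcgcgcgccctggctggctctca
Both stretches hold all 4 motifs, and so do those of H2-D1 and H2-Q4. Of 32851 RefSeq promoters of this length, 33.8% hold CCAAT, 17.8% TGACG, 21.3% AANNGAAA and 7.25% the NF-kB consensus, and 0.0822% hold all 4.

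The stretch where the NF-kB consensus and the interferon element lie side by side is set out for the 3 heavy chains that hold it, since these genes share much of their sequence. It spans 30 bases, at chr17:34000429-34000458 (minus strand) for H2-K1, chr17:35262923-35262952 (plus strand) for H2-D1 and chr17:35379443-35379472 (plus strand) for H2-Q4.
H2-K1: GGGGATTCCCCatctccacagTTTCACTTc
H2-D1: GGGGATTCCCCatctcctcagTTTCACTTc
H2-Q4: GGGGATTTCCCatctccccagTTTCACTTc
H2-T23 held CCAAT once and AANNGAAA in 2 places, and neither TGACG nor the NF-kB consensus was found in its 250 bases. Tap1 held CCAAT and TGACG, Tapbp held CCAAT in 2 places and Psmb8 held none of the 4. The RefSeq start lies inside the GENCODE gene, 3579 bases from its start for Tapbp, 474 for Psmb8, 364 for H2-D1 and 154 for H2-T23. Exons of any gene cover all 250 bases for H2-D1, H2-Q4, Tap1, Tapbp and Psmb8. A missing motif therefore describes these bases and not the whole promoter. No promoter of Tap2 or Nlrc5 was read here. The motifs were chosen with the sequences in view, and a match is a description and not a binding site.

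The target gene of the knockout was checked first. Eed had 1084, 1249 and 950.2 normalized counts (reads per gene divided by a size factor of the library) in the controls and 933, 1361 and 1002 in the libraries labelled Eed iKO, and these groups overlapped (log2 fold change -0.01 ± 0.22 SE). The study itself reports lower Eed mRNA by RT-qPCR in sorted Eed iKO HFSCs. It also reports, by staining at day 70, a loss of H3K27me3, the histone mark that PRC2 sets. These measures are not part of the data read here, and the Eed iKO libraries are named by their labels throughout. The markers of the bulge were abundant, with Krt15 between 142406 and 707811 normalized counts in the 12 libraries. Telogen replicate 1 stood lowest in Krt15, with 142406 beside 350444 and 416765 in the other telogen libraries. Between 33269583 and 57063586 reads stood behind each library of the Eed iKO table. No depth could be had for the anagen and telogen libraries.

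The first question was whether class I genes differ between HFSCs of the resting and the growing follicle. B2m, H2-K1, H2-D1 and Tapbp were lower in anagen than in telogen, by log2 fold changes of -1.15 to -0.69 (limma, Benjamini-Hochberg adjusted p under 0.05). That is 4 of 10 genes, where 4.35% of all genes tested were lower in anagen by this rule. With any single library left out, 2 or 3 of the 10 passed, B2m and H2-K1 each time. In 9 of the 10 genes the fold change was below 0, with a median of -0.95, beside a median of 0.01 over all genes tested. H2-T23 was the exception, with a fold change of 0.44 that did not pass the test and was 0.17 without telogen replicate 1.

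B2m (ENSMUSG00000060802.8), the light chain of class I molecules, had 3196, 2849 and 2932 normalized counts in the anagen libraries and 6209.7, 8508.5 and 5544 in the telogen libraries. Every anagen library was below every telogen library, and telogen replicate 2 was the highest. The log2 fold change was -1.15 ± 0.20 (SE, 95% interval -1.59 to -0.72), with a limma adjusted p of 0.00428. Leaving out any single library kept this call, with adjusted p between 0.00401 and 0.0302.

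H2-K1 (ENSMUSG00000061232.15), a classical heavy chain, had 1271, 1359.5 and 1206 normalized counts in anagen and 2379, 2546 and 2727 in telogen. Its groups were tight and far apart, with SDs of 76.9 and 174 around means of 1279 and 2551. The log2 fold change was -0.99 ± 0.18 (SE, 95% interval -1.39 to -0.60), with a limma adjusted p of 0.00544, which ranged from 0.00435 to 0.0374 when single libraries were left out. B2m and H2-K1 were the 2 genes of the set whose call was kept without any single library.

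H2-D1 (ENSMUSG00000073411.11), the other classical heavy chain, had 1202, 1052 and 1293 normalized counts in anagen and 2029, 1919 and 1749 in telogen, again without overlap. Its log2 fold change of -0.69 ± 0.19 (SE) passed narrowly, with a limma adjusted p of 0.0395, and no longer passed when any 1 of the 6 libraries was left out (0.0538 to 0.179). Tapbp (ENSMUSG00000024308.15), which holds the empty heavy chain at the transporter, had 299, 289.6 and 372 normalized counts in anagen and 689, 543 and 526 in telogen. Its fold change of -0.87 ± 0.25 (SE) stood as close to the threshold, at a limma adjusted p of 0.046 and between 0.0607 and 0.171 without single libraries. For both genes the direction stayed the same in each of these fits.

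**Figure D1:**
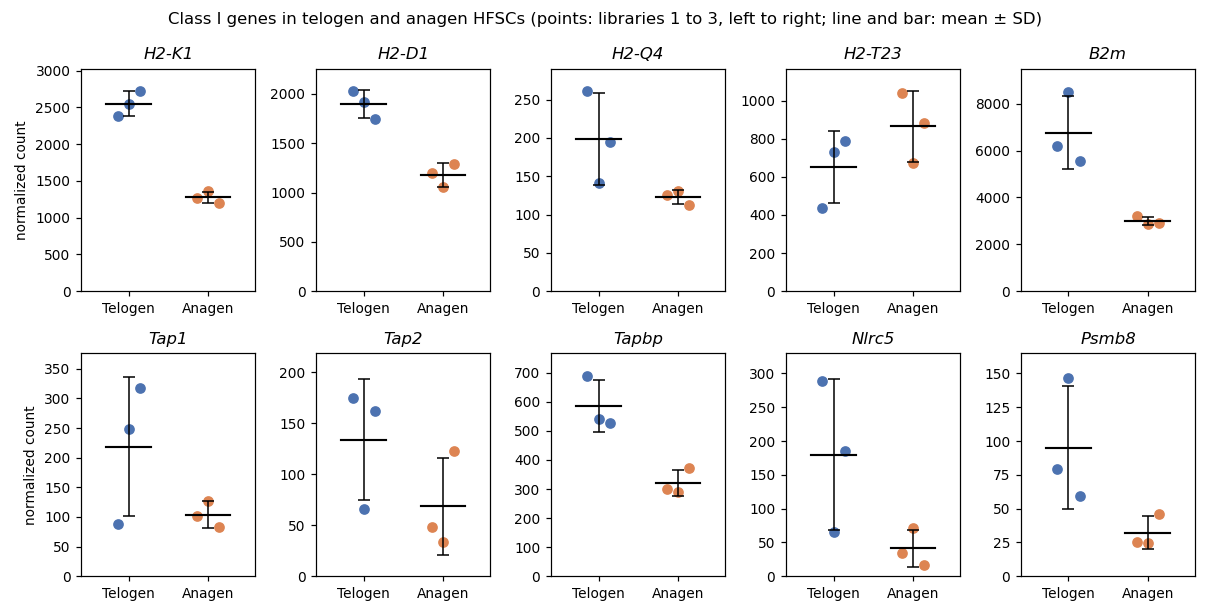
Normalized counts of the 10 class I genes in telogen and anagen HFSCs, 1 panel per gene with its own axis from 0, points for the 3 libraries of each group, and a line and bar for the mean ± SD. The groups do not overlap for H2-K1, H2-D1, H2-Q4, B2m, Tapbp and Psmb8, and H2-T23 is the 1 gene with the higher mean in anagen (864.8 beside 649.5).

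Nlrc5 (ENSMUSG00000074151.13), the transactivator, showed the largest log2 fold change of the set in size and the largest SE. It had 34.1, 71.8 and 17.1 normalized counts in anagen and 288, 66.0 and 186 in telogen. Telogen replicate 2 was below anagen replicate 2, so that the groups overlapped, and the other telogen libraries were well above. The log2 fold change of -2.10 ± 0.65 (SE, 95% interval -3.52 to -0.68) passed the thresholds of the study's methods (more than 2 in either direction, unadjusted p under 0.05), as 1.77% of all genes tested did in this direction, but not the adjusted test (limma adjusted p = 0.0593). Without telogen replicate 2 it was -2.70 with a limma adjusted p of 0.0239, and across the fits without single libraries it lay between -2.70 and -1.60. Without anagen replicate 3, telogen replicate 1 or telogen replicate 3 it no longer passed the thresholds of the methods.

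Psmb8, the immunoproteasome subunit, had 25.4, 24.9 and 46.1 normalized counts in anagen and 79.6, 146 and 59.5 in telogen. Its groups did not overlap, and its log2 fold change of -1.49 ± 0.52 (SE) had a limma adjusted p of 0.0892. Of the 10 genes, 6 had all 3 anagen libraries below all 3 telogen libraries, as did 15.2% of all genes tested.

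The transporter subunits varied widely within the groups. Tap1 had 102, 127 and 82.2 normalized counts in anagen and 88.5, 249 and 317 in telogen, where replicate 1 fell among the anagen libraries. Its log2 fold change was -0.90 ± 0.48 (SE, limma adjusted p = 0.253), and without single libraries it ran from -1.45 without telogen replicate 1 (limma adjusted p = 0.0293) to -0.53 without telogen replicate 3 (limma adjusted p = 0.539). Tap2, its partner in the same transporter, had 48.0, 33.96 and 123 normalized counts in anagen and 175, 65.5 and 162 in telogen. The low telogen library was here replicate 2, and the fold change of -1.05 ± 0.57 (SE) did not pass either (limma adjusted p = 0.257). It was -1.58 without anagen replicate 3 and -0.67 without anagen replicate 2.

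The non-classical heavy chains went separate ways. H2-Q4 had 126, 131 and 113 normalized counts in anagen and 261, 142 and 194 in telogen, without overlap but with a wide telogen spread, and its fold change of -0.65 ± 0.35 (SE) did not pass (limma adjusted p = 0.257). H2-T23 had 1041, 672 and 882 normalized counts in anagen and 434, 728 and 786 in telogen. These groups overlapped, with telogen replicate 1 the lowest of the 6, and the fold change was 0.44 ± 0.28 (SE, 95% interval -0.18 to 1.05, limma adjusted p = 0.344). Without telogen replicate 1, the library lowest in Krt15, it was 0.17 (limma adjusted p = 0.701).

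Within a library, a scaling factor common to all genes drops out of the ratio of H2-T23 to H2-K1. No such common factor could be shown for the anagen and telogen libraries, so their ratios may still carry part of the scaling. The ratio of H2-T23 to H2-K1 was 0.819, 0.494 and 0.731 in anagen and 0.183, 0.286 and 0.288 in telogen, so that each anagen library was above each telogen library. The pair was chosen after the values were seen, and the ratio is given as a description. The ratio of H2-D1 to H2-K1 was 0.945, 0.774 and 1.07 in anagen and 0.853, 0.754 and 0.641 in telogen, where the groups overlapped.

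**Figure D2:**
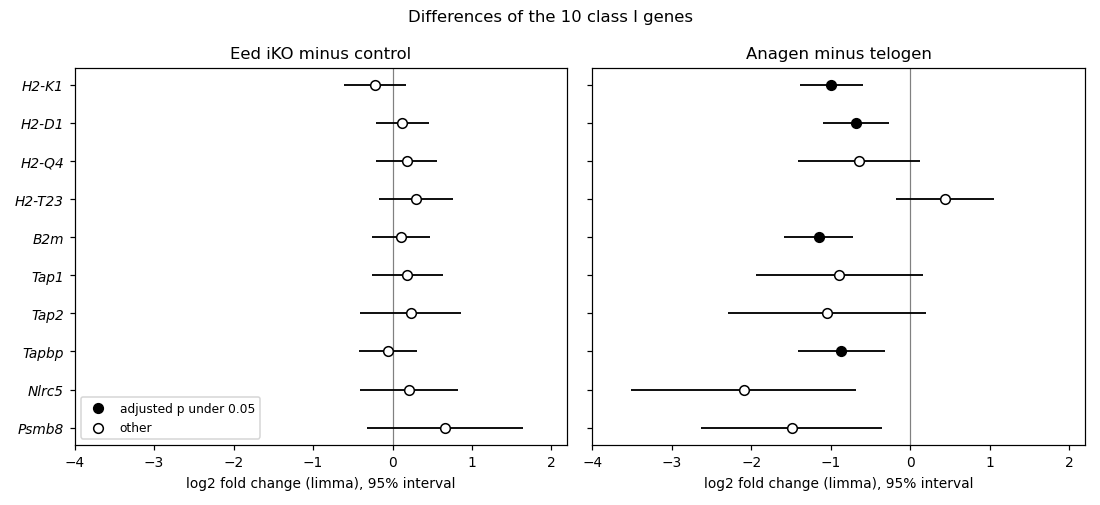
Log2 fold changes of the 10 class I genes with 95% intervals (limma) for Eed iKO minus control on the left and anagen minus telogen on the right, with filled points for an adjusted p under 0.05. All 10 intervals on the left include 0, and 4 points on the right are filled, with B2m the lowest of these at -1.15.

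Reads of the heavy chains could be shared among near-identical genes. Of all 31-base stretches in the transcripts of H2-K1, 22.8% also occur in other genes, most often in H2-D1, and this share was 26.7% for H2-D1, 24.4% for H2-T23 and 38.4% for H2-Q4, whose closest relative was H2-Q6. B2m and Nlrc5 shared none. Summed over all heavy chain genes of the H2 family in the lists, so that sharing among these genes drops out, though not that of H2-T23 with H2-T-ps, which the lists do not hold, the normalized counts were 4496 to 4759 in anagen and 7023 to 7644 in telogen, a log2 ratio of the means of -0.66. For the 4 heavy chains of the set alone this ratio was -0.62. Exons of other genes overlap 29.0% of the exon bases of Tapbp, 19.1% of those of H2-Q4, 18.5% of those of Tap2 and 14.7% of those of Psmb8, and without a stated strand setting the reads of overlapping genes cannot be told apart.

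The rest of the pathway was read from lists of genes with a known role in it. Of 71 such genes tested, 13 passed the adjusted test in either direction, beside 11.6% of all genes tested. These 13 became 5 or 6 without any 1 of the anagen libraries and 11 to 13 without any 1 of the telogen libraries. Among the other class I-like chains, 11 of 16 could be tested and 3 fell in anagen by the adjusted test, where 4.35% of all genes did. H2-Q7, a Qa-2 gene, had 109.5 to 179.8 normalized counts in anagen and 420 to 476 in telogen (log2 fold change -1.72 ± 0.30 SE, limma adjusted p = 0.00452). H2-Q6 fell by 2.24 on the log2 scale, and H2-M3, which presents formylated peptides, fell by 2.33. Cd1d1, which presents lipids, rose by 4.0 from a level close to 0 in telogen (0, 2.09 and 0 normalized counts) to 33.3, 16.4 and 20.0 in anagen.

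No gene of the immunoproteasome or of the constitutive proteasome passed the adjusted test, beside 11.6% of all genes tested. The 4 other subunits and regulators of the immunoproteasome each had a fold change below 0, with a median of -1.03, and 0 of 4 passed. At an unadjusted p under 0.05, 3 of 4 were lower in anagen, beside 12.2% of all genes tested. Psmb10, a catalytic subunit like Psmb8, was the lowest at -1.71 ± 0.72 (SE, limma adjusted p = 0.153). Of the 5 constitutive genes, which include Psmb5, the subunit that Psmb8 replaces, 0 passed by either p, with a median of 0.21. Over all genes tested, 27.3% had an unadjusted p under 0.05 in either direction. The difference between these lists was not tested.

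Of the 8 other genes of peptide loading, 2 rose in anagen by the adjusted test, where 7.22% of all genes were higher in anagen. The list joins chaperones of general use with Tapbpl and Erap1, which serve class I peptides, and its median fold change was 0.46. Calr, Tapbpl, Erap1 and Bcap31 overlapped between groups. Hspa5, the chaperone BiP, had between 17047 and 20990 normalized counts in anagen and between 4245 and 10344 in telogen (log2 fold change 1.62 ± 0.28 SE, limma adjusted p = 0.00466). Sec61a1, a subunit of the protein translocation channel, rose by 0.93 ± 0.23 (SE, limma adjusted p = 0.0281). Both serve secreted proteins at large and not class I alone.

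Regulators of class I gave no single direction. Irf1, an activator of class I promoters, rose in anagen, with 294, 252 and 227 normalized counts beside 80.8, 114 and 51.3 in telogen (log2 fold change 1.70 ± 0.38 SE, limma adjusted p = 0.0161). Irf2, which binds the same element, fell by 1.06 ± 0.30 (SE, limma adjusted p = 0.0447). They were the 2 of 12 genes of interferon signalling that passed, beside 11.6% of all genes tested. The list of the class I and II enhanceosome holds 9 genes, among them Ciita, the class II counterpart of Nlrc5. Of these 9, 0 passed the adjusted test and 2 had an unadjusted p under 0.05, beside 27.3% of all genes tested. Rfxank had the larger fold change of these, at -1.28 ± 0.48 (SE, limma adjusted p = 0.114). Of the 5 NF-kB genes 0 passed, and 1 had an unadjusted p under 0.05, Nfkb1, at 0.54 ± 0.18 (SE, limma adjusted p = 0.0774).

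Among interferon targets outside the class I pathway, 14 of 20 could be tested, with a median of -0.98. By the adjusted test 3 were lower and 1 was higher in anagen, beside 4.35% and 7.22% of all genes tested. Usp18, which restrains interferon signalling, fell by 3.36 on the log2 scale, Gbp2 fell by 3.76 and Gbp7 fell by 1.70, while Ifit2 rose by 3.88. Usp18 had 8.66, 23.7 and 4.32 normalized counts in anagen and 116, 147 and 78.8 in telogen. Gbp2, a guanylate-binding protein, had 4.73, 0.893 and 2.08 normalized counts in anagen and 46.5, 40.0 and 41.8 in telogen (limma adjusted p = 0.00725). Ifit2 had 188, 139 and 62.4 in anagen and 12.6, 0 and 38.0 in telogen (limma adjusted p = 0.0451). Of the ligands of immune recognition, 3 could be tested and 1 rose by the adjusted test, beside 7.22% of all genes tested. This was H60c, at 1.63 ± 0.46 (SE, limma adjusted p = 0.043). Ulbp1, like H60c a ligand of an activating NK cell receptor, had the largest fold change of this list, at 2.62 ± 1.04 (SE, limma adjusted p = 0.132).

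**Figure D3:**
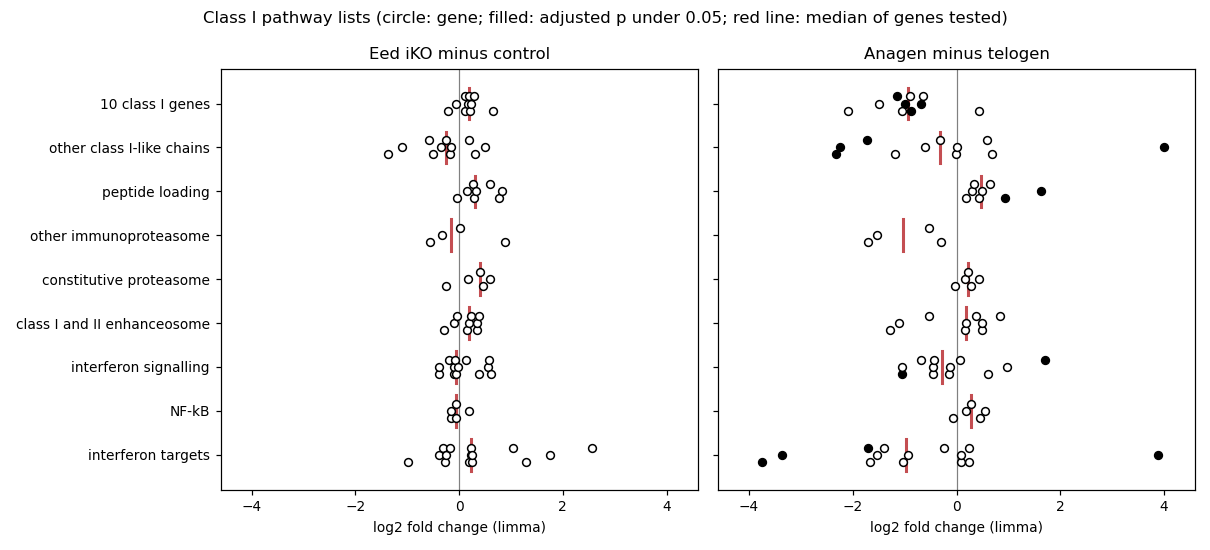
Log2 fold changes (limma) of the genes tested in the class I set and in 8 lists of the pathway, 1 circle per gene, filled for an adjusted p under 0.05, with the median of each list in red. In anagen minus telogen on the right the medians of the class I set (-0.95), the other immunoproteasome genes (-1.03) and the interferon targets (-0.98) are the lowest, and on the left no circle is filled.

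Values that moved with the hair cycle stand beside these results, and their part in them was not tested. All 5 proliferation genes were higher in anagen, with Mki67 at 10404 to 14954 normalized counts beside 276 to 431 in telogen, and of the genes of the sorting gate Cd34 fell by 1.21 ± 0.20 and Itga6, the α6-integrin, rose by 0.97 ± 0.21 (SE). By the adjusted limma test, 7.22% of all genes tested were higher in anagen, among them all 5 proliferation genes. Some markers of other cell types also rose in anagen by this test. These were Dct among 4 melanocyte markers tested (2.51 ± 0.37), Tek among 2 endothelial ones (2.98 ± 0.62), and Col1a1 (2.07 ± 0.41) and Dcn (4.05 ± 0.83, SE) among 4 fibroblast ones. Tyrp1, Pmel and Tyr, the other melanocyte markers tested, had fold changes of 1.92 ± 0.69, 1.34 ± 0.85 and 0.08 ± 0.92 (SE) and did not pass. Tyrp1 did not overlap between groups (limma adjusted p = 0.0994). Pecam1, Pdgfra and Col1a2, the other endothelial and fibroblast markers tested, had fold changes below 0 and did not pass. Those of Pecam1 and Pdgfra were -0.08 ± 0.46 and -1.02 ± 1.09 (SE). Col1a2 had 154, 229 and 172 normalized counts in anagen and 233, 600 and 346 in telogen, without overlap (limma adjusted p = 0.108). The summed level of the melanocyte list was 437 to 803 normalized counts in anagen and 81.3 to 160 in telogen, that of the endothelial list 132 to 167 and 72.7 to 139, and that of the fibroblast list 470 to 628 and 316 to 649. Sox10 and Cdh5, which define melanocytes and endothelial cells, were at 0 in every library of this table. Of the 18 markers of immune cells in the table, which also carry class I, 9 could be tested. Of these, 0 passed by either p, beside 11.6% (adjusted) and 27.3% (unadjusted) of all genes tested. The summed level of the 18 markers was 339 to 421 normalized counts in anagen and 317 to 637 in telogen. Nkg7 was at 0 in every library while Lyz2 was at 0 in every telogen library. B2m and Psmb8 were highest in telogen replicate 2, the library with the highest immune sum of all 6, where H2-Aa alone had 260. H2-D1, H2-Q4, Tap2, Tapbp and Nlrc5 were highest in telogen replicate 1. H2-K1 and Tap1 were highest in telogen replicate 3, the library with the lowest immune sum, and H2-T23 in anagen replicate 1. In bulk RNA, fewer cells that express a gene and less RNA per cell cannot be told apart.

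The second question was whether class I genes change when Eed is targeted in resting HFSCs. Of the 10 genes 0 passed at an adjusted p under 0.05, whether by limma or, on reads recovered from the table, by edgeR or DESeq2. The counts of Eed overlapped between these groups, and the direction of each difference rests on the labels, beside the study's RT-qPCR and staining named above. The limma fold changes of Eed iKO minus control lay between -0.22 and 0.66, with a median of 0.18 beside 0.00 over all genes. At an unadjusted p under 0.05, limma called 0 of the 10, where it called 14.7% of all genes tested, and by the thresholds of the study's methods 0 of 10 beside 1.75%. The adjusted limma test called 0.0267% of all genes. The adjusted edgeR test called 5 genes in all, and that of DESeq2 5.31% of the genes to which it gave an adjusted p. Psmb8 had the lowest p of the 10 by both edgeR (unadjusted p = 0.0752, adjusted p = 0.396) and DESeq2 (unadjusted p = 0.0481, adjusted p = 0.271). The share of all genes at an unadjusted p under 0.05 was not taken for these 2 tests.

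For the abundant genes the intervals bound the size of a change. H2-K1 had 18033, 21051 and 27181 normalized counts in the controls and 19586, 15867 and 21167 in the libraries labelled Eed iKO. The groups overlapped, with a log2 fold change of -0.22 ± 0.18 (SE, 95% interval -0.61 to 0.17). H2-D1 had 13281, 10737 and 13695 in the controls and 15594, 13089 and 12326 in Eed iKO, and a 95% interval from -0.21 to 0.45. B2m had 42448, 33705 and 43003 in the controls and 49681, 42140 and 36848 in Eed iKO, with an interval from -0.25 to 0.47. For these 3 genes a change beyond 1 on the log2 scale, in either direction, lay outside the interval.

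The loading genes likewise overlapped between groups. Tapbp ran from 2013 to 2425 normalized counts in the controls and from 1987 to 2473 in Eed iKO, and Tap1 from 1309.9 to 1730.0 and from 1343 to 1992. Tap2 ran from 364 to 674 in the controls and from 514 to 692 in Eed iKO. The largest of these fold changes was 0.23 ± 0.29 (SE), for Tap2. Nlrc5 had 552, 789 and 839 normalized counts in the controls and 761, 639 and 1153 in Eed iKO, a fold change of 0.21 ± 0.28 (SE, limma adjusted p = 0.777).

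H2-Q4 was the 1 gene of the set whose groups did not overlap, in a direction shared by 10.2% of all genes tested. It had 1106, 1267 and 1183 normalized counts in the controls and 1320.4, 1317 and 1376 in the libraries labelled Eed iKO (log2 fold change 0.18 ± 0.17 SE, limma adjusted p = 0.68). H2-T23 had 2392, 4295 and 3949 in the controls and 4356, 3852 and 4447 in Eed iKO, with control replicate 1 below the other 5 libraries (0.29 ± 0.21 SE, limma adjusted p = 0.545, and 0.03 without that library).

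Psmb8 had the largest fold change of the set and split its own group. It had 288, 251 and 321 normalized counts in the controls, 668 and 673 in Eed iKO replicates 1 and 2, and 205 in Eed iKO replicate 3, the lowest value of all 6 libraries. The log2 fold change was 0.66 ± 0.45 (SE, limma adjusted p = 0.519), and 1.23 without Eed iKO replicate 3 (limma adjusted p = 0.089). Without Eed iKO replicate 1 or 2 it was 0.38 or 0.37 (limma adjusted p = 0.855 and 0.857). Mki67 split the group in the same way, with 6125 and 6301 in replicates 1 and 2 and 609 in replicate 3, beside 639 to 2543 in the controls. Psmb5, the constitutive counterpart of Psmb8, had 1601, 2752 and 1106 in Eed iKO. Whether these values bear on that of Psmb8 was not tested.

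**Figure D4:**
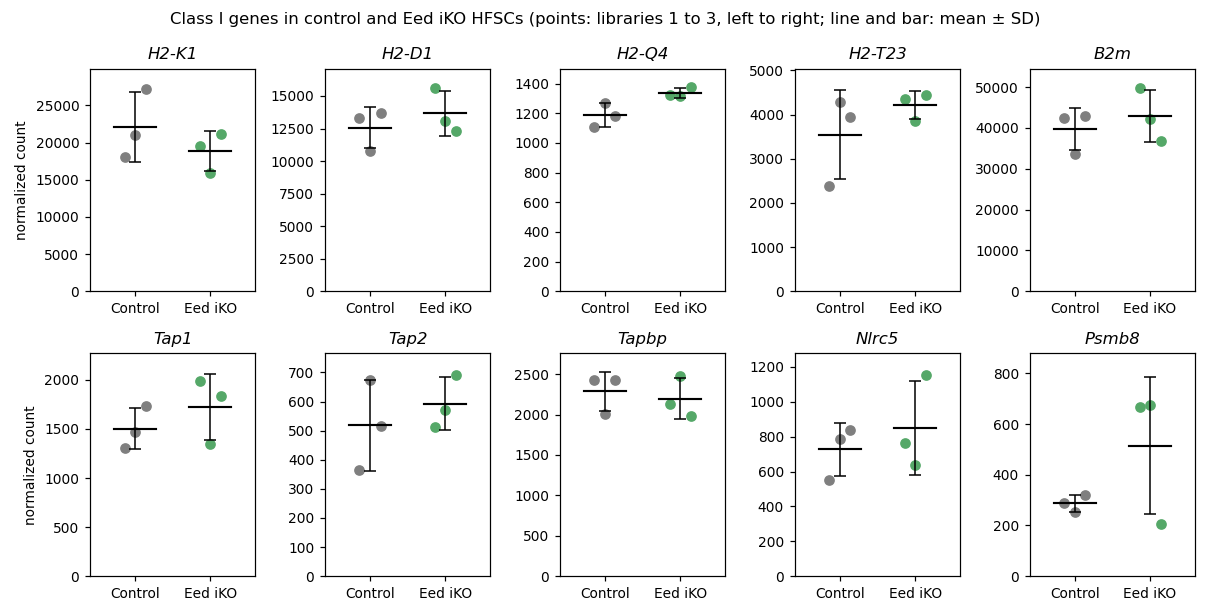
Normalized counts of the 10 class I genes in control and Eed iKO HFSCs, 1 panel per gene with its own axis from 0, points for the 3 libraries of each group, and a line and bar for the mean ± SD. The groups overlap in 9 of the 10 panels, and Psmb8 splits the Eed iKO group into 2 libraries at 668 and 673 and 1 at 205.

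Of 73 genes of the pathway lists that could be tested in this table, 0 passed the adjusted test by limma, while 8 had an unadjusted p under 0.05, beside 14.7% of all genes tested. DESeq2 on recovered reads called 5, beside 5.31% of all genes to which it gave an adjusted p. The chaperones Canx and Calr, which hold new heavy chains, had fold changes of 0.77 ± 0.15 and 0.59 ± 0.13 (SE, limma adjusted p = 0.0907 and 0.104). Hspa5 had the largest of the loading list, at 0.83 ± 0.20 (SE, limma adjusted p = 0.113). In the other lists the largest fold changes at an unadjusted p under 0.05 were those of H2-T24, at -1.10 ± 0.36, Psme2, an activator of the immunoproteasome, at 0.88 ± 0.23, Psmb7 at 0.47 ± 0.18 and Ifngr1, a subunit of the interferon-γ receptor, at 0.58 ± 0.23 (SE). No gene of the enhanceosome, NF-kB, interferon target or immune recognition lists reached it.

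Markers of immune cells gave no adjusted call. Of the 16 markers found, 11 could be tested, of which 7 had a fold change above 0 and 4 below. At an unadjusted p under 0.05, 3 were higher in Eed iKO, beside 8.38% of all genes tested, and 0 lower. By the thresholds of the study's methods 3 were higher and 0 lower, beside 1.75% of all genes tested in either direction. Cd207, a marker of Langerhans cells, was at 0 in the 3 controls and at 18.3, 13.3 and 23.7 normalized counts in Eed iKO. The summed level of the list was 493 to 1398 in the controls and 939 to 1355 in Eed iKO. The highest of the 6 libraries was control replicate 3, where Cd68 alone had 732. The mean of log2(normalized count + 1) over the 16 markers did not overlap. It was 3.294, 3.013 and 4.01 in the controls and 5.395, 4.547 and 4.844 in Eed iKO. Of the 16 markers, 4, 6 and 4 were at 0 in the controls and 0, 0 and 1 in Eed iKO. The part of these markers in the values of the class I genes was not tested.

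Per kilobase of transcript, the order of the class I genes ran from B2m at the top to Nlrc5 at the bottom in all 4 groups. The tables were normalized separately, so that levels are compared within a table only. In the controls B2m stood at 46185 ± 6064 normalized counts per kilobase (SD, n = 3), H2-K1 at 13643 ± 2879, H2-D1 at 5980.5 ± 762 and H2-T23 at 2408 ± 689, and neighbours among these 4 did not overlap. At the bottom, Psmb8 (176 ± 21.4), which lay apart from Tap1 above it, overlapped with Tap2 (151 ± 45.1), and Tap2 with Nlrc5 (95.9 ± 20.2).

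In telogen B2m stood at 7854 ± 1809 normalized counts per kilobase (SD, n = 3), H2-K1 at 1576 ± 108, H2-D1 at 903 ± 67.0, H2-T23 at 441 ± 128, Tapbp at 202 ± 30.98 and H2-Q4 at 111 ± 33.5. From H2-Q4 down, through Tap1, Psmb8, Tap2 and Nlrc5, each gene overlapped with the next. In anagen H2-T23 (587 ± 126) overlapped with H2-D1 (562 ± 57.8), which in telogen it did not. With the mean length of the coding transcripts in place of the longest, B2m stayed first and Nlrc5 last, and H2-D1 came above H2-K1 in anagen. Nlrc5 stood at 5.41 ± 3.70 in anagen and 23.8 ± 14.7 in telogen.

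**Figure D5:**
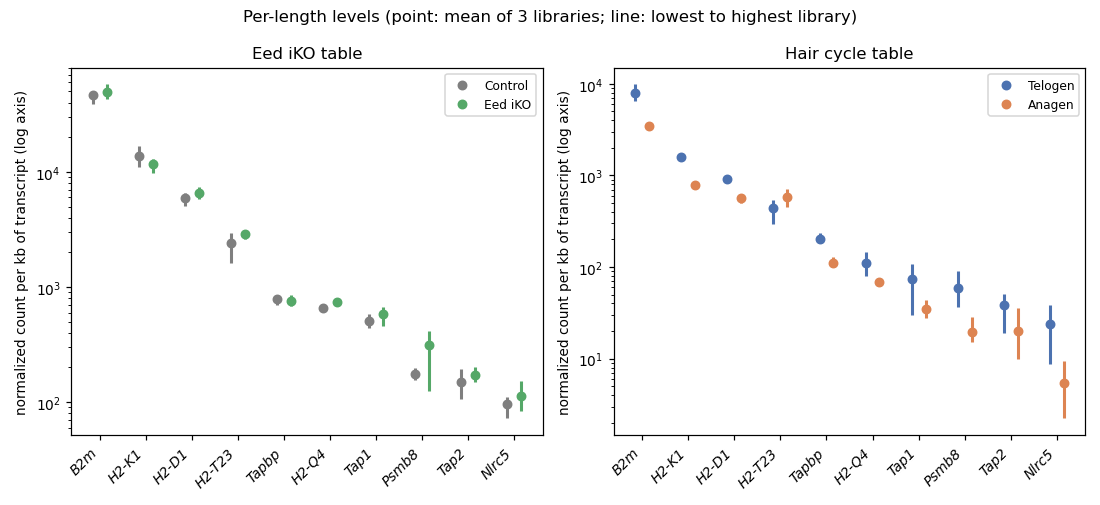
Normalized counts per kilobase of the longest coding transcript on a log axis, for the Eed iKO table on the left and the hair cycle table on the right, with a point for the mean of 3 libraries and a line from the lowest to the highest. B2m is the highest and Nlrc5 the lowest gene in each group, and in the hair cycle table the anagen points lie below the telogen points for every gene but H2-T23.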

How the data were processed

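RNA of FACS-purified HFSCs was amplified, sequenced as paired ends in 12 libraries, grouped here by their labels, and aligned by the authors to the Gencode vM20 transcripts with kallisto 0.42.5. The deposited signal was taken to be the estimated reads of a gene in a library, scaled by the size factor that DESeq2 gave that library. For the anagen and telogen libraries a single factor per library could not be shown. The deposited log2 fold changes and their errors, the score of the Wald test and each deposited p-value come from the authors' own comparisons and were not used here.

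Each table was fitted on its own with limma 3.58.1 (R 4.3.3) on log2(normalized count + 1), with an intensity trend, after filterByExpr at a count minimum of 10. P-values were adjusted by Benjamini-Hochberg over all genes tested in the table, and fold changes are on this log2 scale, which understates the change of low genes. Calls used an adjusted p under 0.05 or the thresholds of the study's methods (log2 fold change beyond 1.5 for Eed iKO and 2 for the hair cycle, unadjusted p under 0.05). For Eed iKO and control, 100% of the values of each library were within 0.01 of a whole multiple of 1 constant, which for Eed iKO replicate 3 lay close to 1, and the reads recovered from them were tested with edgeR 4.0.16 and DESeq2 1.42.0 as alternatives. In the hair cycle table at most 31.04% were, and no reads were recovered.

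Coordinates, lengths and shared 31-base stretches came from GENCODE vM21, to which 17879 of 17885 and 21915 of 21915 genes matched by identifier without its version, and promoters from RefSeq, with an entry for 8 of the 10 genes. The scripts were tested on simulated data. The genes, lists and tests were chosen with earlier results of these data known. Named genes were the 10 members, genes of the pathway lists past an adjusted p under 0.05, the gene with the largest fold change at an unadjusted p under 0.05 in each list, Eed, and markers that bear on a member. The alternatives were a pseudocount of 0.1, no filter, TMM scaling, no intensity trend, a block on the replicate number, leaving out single libraries, other tests on recovered reads and summed heavy chains. Transcript length as a mean over coding transcripts was added after the data were seen.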

Additional observations from a re-analysis of the deposited data

How the results depend on the processing

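With 3 libraries a group, precision is set by the spread between libraries, most of all for genes under about 100 normalized counts, and no depth could be had for anagen and telogen. TMM scaling moved the median fold change of all genes by 0.003 (Eed iKO) and -0.008 (hair cycle). In the hair cycle, 91 of 110 fold changes of single members under an alternative kept their direction and their side of the adjusted threshold, 17 lost a call, all of them H2-D1 or Tapbp, and 2 gained one. In the Eed iKO comparison 125 of 130 kept both and 5 changed sign, each within 0.04 of 0: B2m at -0.01 without control replicate 2 and -0.00 without Eed iKO replicate 1, Tap2 at -0.00 without control replicate 1, and Tapbp at 0.01 and Nlrc5 at -0.04 without Eed iKO replicate 3. Without single libraries the fold changes ranged from -0.01 to 0.21 for B2m, -0.00 to 0.44 for Tap2, -0.15 to 0.01 for Tapbp and -0.04 to 0.39 for Nlrc5.

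The 4 members called in the hair cycle became 2, B2m and H2-K1, without an intensity trend and with the replicate block, and 2 to 3 without single libraries (2 without any anagen library or telogen replicate 3). The 1 member past the thresholds of the methods became 0 to 1 (0 without anagen replicate 3 or telogen replicates 1 or 3). Calls in the pathway lists, 13 in the hair cycle, ranged from 5 to 13 without single libraries (5 or 6 without an anagen library), and in the Eed iKO comparison, where there were 0, from 0 to 1 (Canx, without Eed iKO replicate 3), with 5 by DESeq2 and 3 with the replicate block (Calr, Canx and Hspa5). Over all genes the adjusted calls of the hair cycle, 1556, were 842 without an intensity trend and 590 to 1534 without single libraries, with 590, 675 and 826 without anagen replicates 1, 2 and 3. Those of the Eed iKO comparison, 4, were 2 without an intensity trend, 673 by DESeq2, 5 by edgeR and 1 to 188 without single libraries, with 188 without Eed iKO replicate 3 and 1 without each of the others. The 263 genes past the thresholds of the methods became 425 without the filter and 217 to 449 without single libraries, with 410 without control replicate 3 and 449 without Eed iKO replicate 3. The causes were not tested.

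Same-numbered libraries deviated together weakly for Eed iKO and control (correlations of 0.039, 0.068 and 0.193, the last for replicate 3). They did not for anagen and telogen (-0.035, -0.071 and -0.029). Summed markers of epidermis outside the bulge stood at 64129 normalized counts in Eed iKO replicate 3 and 44439 in control replicate 3. The other libraries of these groups had 8032 to 20814. Whether replicates 3 share a batch was not tested. Not every library correlated best with its own number, so the numbers were not taken as pairs. As a block they gave 424 calls in place of 4 in the Eed iKO comparison and 1224 in place of 1556 in the hair cycle. edgeR and DESeq2 were not run on the hair cycle table, where reads could not be recovered. With mean transcript length, 6 of 10 members kept their place in the per-length order in the controls, 8 in Eed iKO, 7 in anagen and 8 in telogen.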
